A study of Mus musculus with 6 samples.

Results

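Genes that define dendritic cells were followed in the RNA of exosomes, which are small vesicles shed by cells, here by mouse dendritic cells in culture. The 10 genes, chosen by name, were Itgax, Flt3, Zbtb46, Batf3, Id2, Ly75, Cst3, Sirpa, Dpp4 and Kmo. Of these, 9 had a value here, out of 12375 genes, and 8 passed a filter on low values that kept 10272 genes. Flt3 did not pass the filter, and Dpp4, which encodes the dipeptidyl peptidase CD26, was not analysed here.

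Dendritic cells sample antigen in tissues, mature when they meet microbial products, and then present antigen to T cells. Conventional dendritic cells develop under the FLT3 receptor and express the transcription factor ZBTB46, the integrin CD11c and MHC class II. Type 1 conventional dendritic cells, which cross-present antigen, depend on BATF3 and ID2, and type 2 cells carry SIRP alpha. Cells grown from bone marrow with GM-CSF are a mixed myeloid culture that holds dendritic-like and macrophage-like cells.

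The 6 libraries formed 2 groups of 3, exosomes of immature and of mature dendritic cells, both from the bone marrow of C57BL/6 mice. Per the labels' protocols, the culture medium held GM-CSF at 20 ng/ml with IL-4 at 10 ng/ml until day 7, and cells were then given 5 µg/ml lipopolysaccharide, a bacterial cell wall component, or PBS for 24 h. Exosomes were collected by differential ultracentrifugation after another 48 h. The mature group was read as the lipopolysaccharide arm, which the labels do not say in words, and their treatment tag reads untreated for all 6 libraries. Nothing in the labels says whether libraries of one group derive from separate cultures or animals, so p-values measure only the spread between these libraries, which may be technical.

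The libraries differed in ways that touch every gene below. Transcripts at 0.5 FPKM (read fragments corrected for transcript length and library total) or more numbered 10912 to 16728 in immature libraries and 12924 to 18775 in mature libraries, and summed FPKM ranged from 135814 to 213737 and from 130401 to 281368. Immature library 2 and mature library 1 had the fewest detected transcripts and the largest mitochondrial shares of summed FPKM, 2.55% and 0.940%, against 0.0696% to 0.282% in the other 4. Read totals are unknown, and depths relative to immature library 1, estimated from low FPKM values, lay between 0.753 and 1.19. The median gene stood 0.38 higher in the mature group on the log2(FPKM + 1) scale, and 76.4% of tested genes had a positive difference. In bulk vesicle RNA, a smaller share of vesicles from one cell type and less of an RNA per cell cannot be told apart.

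Promoter sequences from RefSeq on GRCm38.p6 are shown for the genes whose 2 groups of libraries did not overlap (Batf3, Id2, Ly75 and Cst3) and for Itgax, the usual surface marker gene of these cells. Each runs 5′ to 3′ on the gene's strand, from 250 bases before the start to 50 after it, and capitals mark matches to the motifs given next.
Batf3, chr1:191098164-191098463, plus strand: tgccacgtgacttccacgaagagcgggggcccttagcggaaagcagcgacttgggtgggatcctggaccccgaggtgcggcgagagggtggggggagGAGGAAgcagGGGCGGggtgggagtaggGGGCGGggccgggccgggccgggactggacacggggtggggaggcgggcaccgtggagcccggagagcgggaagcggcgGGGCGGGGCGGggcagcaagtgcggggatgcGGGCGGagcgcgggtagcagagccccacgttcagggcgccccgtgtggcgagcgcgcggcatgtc
Id2, chr12:25096043-25096342, minus strand: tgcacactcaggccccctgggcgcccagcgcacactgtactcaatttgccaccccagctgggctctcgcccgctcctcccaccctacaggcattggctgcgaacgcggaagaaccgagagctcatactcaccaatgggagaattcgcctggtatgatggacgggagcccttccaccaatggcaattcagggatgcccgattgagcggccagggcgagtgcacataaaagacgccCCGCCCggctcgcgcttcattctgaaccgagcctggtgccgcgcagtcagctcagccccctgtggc
Ly75, chr2:60383224-60383523, minus strand: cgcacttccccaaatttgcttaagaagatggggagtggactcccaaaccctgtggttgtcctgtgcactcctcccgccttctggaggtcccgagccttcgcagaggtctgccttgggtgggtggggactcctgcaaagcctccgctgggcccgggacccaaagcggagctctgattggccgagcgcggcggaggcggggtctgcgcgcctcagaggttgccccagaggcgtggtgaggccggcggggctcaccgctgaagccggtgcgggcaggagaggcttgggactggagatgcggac
Cst3, chr2:148875463-148875762, minus strand: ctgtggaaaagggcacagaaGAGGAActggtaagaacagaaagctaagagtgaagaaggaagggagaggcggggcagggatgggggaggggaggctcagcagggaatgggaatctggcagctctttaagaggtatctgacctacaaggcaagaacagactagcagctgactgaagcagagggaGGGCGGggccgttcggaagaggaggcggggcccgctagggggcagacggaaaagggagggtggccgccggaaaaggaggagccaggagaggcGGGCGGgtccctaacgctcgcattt
Itgax, chr7:128129300-128129599, plus strand: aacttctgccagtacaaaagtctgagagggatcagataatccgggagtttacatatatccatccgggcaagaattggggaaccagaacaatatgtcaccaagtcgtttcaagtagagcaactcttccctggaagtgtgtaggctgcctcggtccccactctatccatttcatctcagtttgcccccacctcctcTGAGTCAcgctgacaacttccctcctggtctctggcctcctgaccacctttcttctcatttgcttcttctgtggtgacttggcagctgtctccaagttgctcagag

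The motifs were searched on both strands, and their share of all 32851 RefSeq promoters of the same length is given with each. They were the PU.1-type core GAGGAA (28.28%), the AP-1 motif TGANTCA (7.81%), the interferon-stimulated response element, GAAA, any 2 bases and GAAA (3.44%), the NF-kB-type motif, GGGA, any 2 bases and TTCC (1.47%) and the GC box GGGCGG (35.66%). The Batf3 window held GAGGAA from base -153 and 5 GC boxes, with the start counted as base 0, and the GC boxes from bases -46 and -41 share 1 base. The Cst3 window held GAGGAA from base -230 and GC boxes from bases -67 and 25, and the Id2 window held 1 GC box from base -16. The Itgax window held the AP-1 match TGAGTCA from base -56 to base -50, and the Ly75 window held none of these letters. G and C made up 75.7% of the Batf3 window, 67.0% of Ly75, 63.3% of Id2, 60.3% of Cst3 and 50.0% of Itgax, against a median of 52.7% over all promoters, and the windows held 34, 21, 21, 13 and 5 CpG. A match describes letters only, and nothing here measured binding.

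The identity genes other than Flt3, Kmo and Dpp4 were detected in all 6 exosome libraries, and none passed the test for a difference between the groups. With limma on log2(FPKM + 1) and Benjamini-Hochberg adjustment over all tested genes, 0 of the 8 tested identity genes had an adjusted p under 0.05, where 0.185% of all genes did (19 higher, 0 lower). At an unadjusted p under 0.05, 2 of the 8 were higher (Batf3 and Ly75) and 0 lower, beside 9.52% of all genes higher. All 3 mature values exceeded all 3 immature values in 4 of the 8 (Batf3, Id2, Ly75 and Cst3), beside 16.7% of all genes. The reverse held in 0 of the 8, beside 0.643% of all genes. The median log2 difference of the 8 was 0.62, against 0.38 over all genes tested. After scalings that remove most of that general shift, non-overlap was left for Batf3 and Ly75 with scaling to the same sum (beside 10.1% of all genes), upper-quartile scaling (7.38%), quantile normalization (7.15%) or percentile ranks (7.15%). With median-of-ratios scaling it was left for Ly75 alone, beside 7.6% of all genes.

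**Figure D1:**
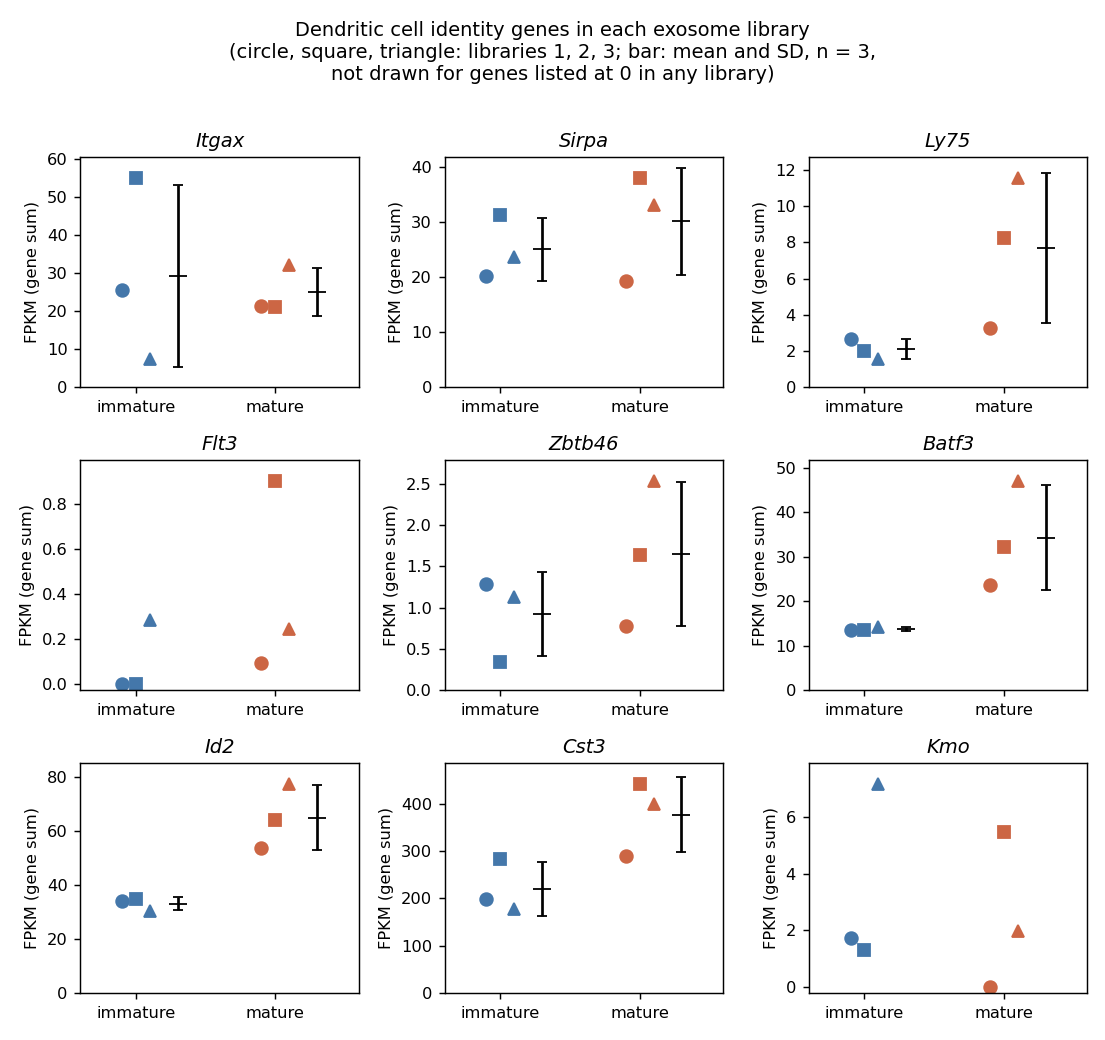
Summed FPKM of each of the 9 identity genes with values, by library (circle, square and triangle for libraries 1, 2 and 3), with the mean and SD of 3 libraries as a bar where no library was listed at 0. The mature libraries all lie above the immature ones for Ly75, Batf3, Id2 and Cst3, while Itgax spans 7.36 to 54.9 FPKM within the immature group alone.

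Among the surface receptors, Itgax encodes CD11c, the alpha chain of an adhesion and complement receptor integrin and the usual surface marker of dendritic cells. The gene (ENSMUSG00000030789.9) lies at chr7:128129547-128150657 on the plus strand of GRCm38. Its values were 25.5, 54.9 and 7.36 FPKM in immature libraries 1, 2 and 3, and 21.4, 21.1 and 32.2 FPKM in mature libraries 1, 2 and 3. The mature values lay inside the immature range, whose ends were immature libraries 2 and 3. The means were 29.3 ± 24.0 and 24.9 ± 6.35 FPKM (SD, n = 3), and the log2 difference was 0.14 (SE 0.67, 95% interval -1.34 to 1.61, limma adjusted p = 0.974). Its sign is not fixed by these data, since it was -0.60 without immature library 3 and 0.77 without immature library 2, and negative under each scaling to a common level.

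Sirpa encodes SIRP alpha, an inhibitory receptor that binds CD47 on other cells and marks type 2 dendritic cells and macrophages. It (chr2:129592835-129632228, plus strand) stood at 20.2, 31.3 and 23.6 FPKM in immature and 19.3, 38.0 and 33.1 FPKM in mature libraries. Mature library 1 was the lowest of the 6 and the groups overlapped. With means of 25.0 ± 5.70 and 30.1 ± 9.68 FPKM (SD, n = 3), its log2 difference was 0.23 (SE 0.48, 95% interval -0.84 to 1.29, limma adjusted p = 0.922), and it turned to -0.27 with median-of-ratios scaling. Related Sirpb genes may share reads with Sirpa, so its level is uncertain.

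Ly75 encodes DEC-205, an endocytic receptor of the mannose receptor family that delivers antigen for presentation. The gene (chr2:60292103-60383303, minus strand) was at 2.68, 1.99 and 1.57 FPKM in immature libraries and 3.25, 8.27 and 11.6 FPKM in mature libraries. Every mature value was above every immature value, although mature library 1 lay close to immature library 1. The mean was 2.08 ± 0.557 FPKM in immature and 7.69 ± 4.18 FPKM in mature exosomes (SD, n = 3), a ratio of 3.70. Ly75 had the largest log2 difference of the 8 genes, 1.38 (SE 0.53, 95% interval 0.21 to 2.55, limma adjusted p = 0.436), which is 0.99 above that of the median gene.

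Flt3, the receptor for the cytokine that drives dendritic cell development in the body, was near the floor of the table. It (chr5:147330741-147400489, minus strand) was listed at 0, 0 and 0.285 FPKM in immature and at 0.0947, 0.906 and 0.244 FPKM in mature libraries. Its only listed transcript exceeded 0.5 FPKM in mature library 2 alone, so it was not tested. Csf2rb, the shared signalling chain of the GM-CSF receptor, stood by contrast at 105, 111 and 96.7 FPKM in immature and 156, 170 and 249 FPKM in mature libraries. Its groups did not overlap, and the log2 difference was 0.84 (SE 0.52, limma adjusted p = 0.628). GM-CSF and IL-4 are the cytokines that the labels' protocols name for these cultures.

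Of the transcription factor genes, Zbtb46 encodes a zinc finger repressor that marks the conventional dendritic cell lineage. It (chr2:181387762-181459426, minus strand) was low throughout, at 1.29, 0.335 and 1.13 FPKM in immature and 0.778, 1.64 and 2.54 FPKM in mature libraries. The groups overlapped, and immature library 2 and mature library 1, which detected the fewest transcripts, had the lowest value of their groups. Means were 0.918 ± 0.511 and 1.65 ± 0.879 FPKM (SD, n = 3), with a log2 difference of 0.45 (SE 0.45, 95% interval -0.55 to 1.45, limma adjusted p = 0.781). Zgpat, Lime1 and other annotated genes overlap it, and the strand of the libraries is not given in the sources used here.

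Batf3 encodes a basic leucine zipper factor of the AP-1 family that type 1 conventional dendritic cells need. The gene lies at chr1:191097847-191108945 on the plus strand. Its immature values were close together, at 13.5, 13.5 and 14.3 FPKM, and its mature values were 23.6, 32.2 and 47.0 FPKM. The mature group lay wholly above the immature one, and its spread was wider. The means were 13.8 ± 0.424 and 34.2 ± 11.8 FPKM (SD, n = 3), a ratio of 2.49. On the log2 scale the difference was 1.20 (SE 0.47, 95% interval 0.17 to 2.23, limma adjusted p = 0.439), or 0.82 above the median gene.

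Id2 encodes an inhibitor of E proteins, which it keeps from binding DNA, and it is needed for several dendritic cell lineages. It (chr12:25093799-25097140, minus strand) was at 34.0, 34.9 and 30.4 FPKM in immature and 53.7, 64.2 and 77.4 FPKM in mature libraries. Here too the lowest mature value exceeded the highest immature value. Means were 33.1 ± 2.38 and 65.1 ± 11.9 FPKM (SD, n = 3), a ratio of 1.97, and the log2 difference of 0.94 did not pass (SE 0.46, 95% interval -0.08 to 1.96, limma adjusted p = 0.539). The related inhibitor gene Id3 was at 0.685, 0 and 0.626 FPKM in immature and 1.61, 1.33 and 2.29 FPKM in mature libraries (limma adjusted p = 0.474). Id3 was a planned partner for a ratio with Id2, which could not be formed because of its value at 0.

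Cst3 encodes cystatin C, a secreted inhibitor of cysteine cathepsins that dendritic cells express strongly. It (chr2:148871722-148875692, minus strand) was the most abundant of these genes, at 199, 284 and 177 FPKM in immature and 289, 442 and 401 FPKM in mature libraries. The groups did not overlap, but mature library 1 was within a few FPKM of immature library 2. Means of 220 ± 56.6 and 377 ± 79.1 FPKM (SD, n = 3) gave a ratio of 1.71 and a log2 difference of 0.78 (SE 0.56, 95% interval -0.46 to 2.02, limma adjusted p = 0.682).

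Kmo encodes kynurenine 3-monooxygenase, an enzyme of tryptophan breakdown. It (chr1:175631996-175660853, plus strand) was at 1.72, 1.30 and 7.18 FPKM in immature libraries, and was listed at 0, 5.49 and 1.96 FPKM in mature libraries. High values occurred in both groups, in immature library 3 and mature library 2. The log2 difference was -0.47 (SE 0.73, 95% interval -2.09 to 1.15, limma adjusted p = 0.885), and it was 0.10 without immature library 3 and 0.24 without mature library 1. With a pseudocount of 0.1 it was -1.34, and with the 4 scalings to a common level it lay between -0.99 and -0.83.

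**Figure D2:**
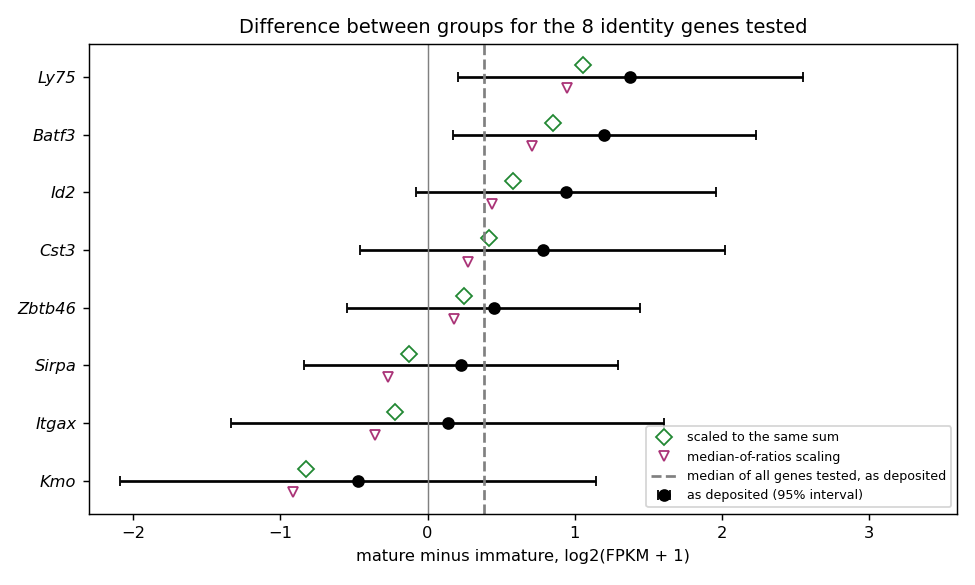
Log2 difference (mature minus immature, log2(FPKM + 1)) of the 8 tested identity genes with its 95% interval from limma (filled circles), and the same difference after scaling to the same sum (diamonds) or by median of ratios (triangles). The dashed line is the median of all genes tested, 0.38, and the intervals of Ly75 and Batf3 alone lie above 0, while Sirpa and Itgax change sign between scalings.

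FPKM is scaled by transcript length, so levels of different genes can be set in order. Cst3 led in every library, at 177 to 442 FPKM, and its range did not meet that of Id2, at 30.4 to 77.4 FPKM. The ranges of Id2, Sirpa, Itgax and Batf3 overlapped across libraries. Within every single library Id2 lay above Sirpa and above Batf3. No other pair among these genes kept its order in all libraries. Batf3, from 13.5 FPKM upward, lay above Ly75, at most 11.6 FPKM. Ly75, Kmo, Zbtb46 and Flt3 followed, each overlapping its neighbour.

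Percentile ranks within a library, which do not depend on how libraries are scaled, placed the genes as follows. Cst3 stayed between 98.5 and 99.5, Id2 between 93.2 and 97.1 and Sirpa between 91.2 and 95.1. Batf3 ranked at 88.5, 88.5 and 85.3 in immature and at 93.4, 89.9 and 93.9 in mature libraries. Ly75 ranked at 54.7, 56.2 and 36.2 and at 61.6, 65.8 and 75.9. These were the 2 identity genes whose mature ranks all exceeded their immature ranks, which was the case for 7.15% of all genes. Itgax ranked between 84.6 and 97.1 in 5 libraries and at 72.9 in immature library 3. Zbtb46 stayed between 29.8 and 41.2 and Flt3 between 4.60 and 20.2.

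**Figure D3:**
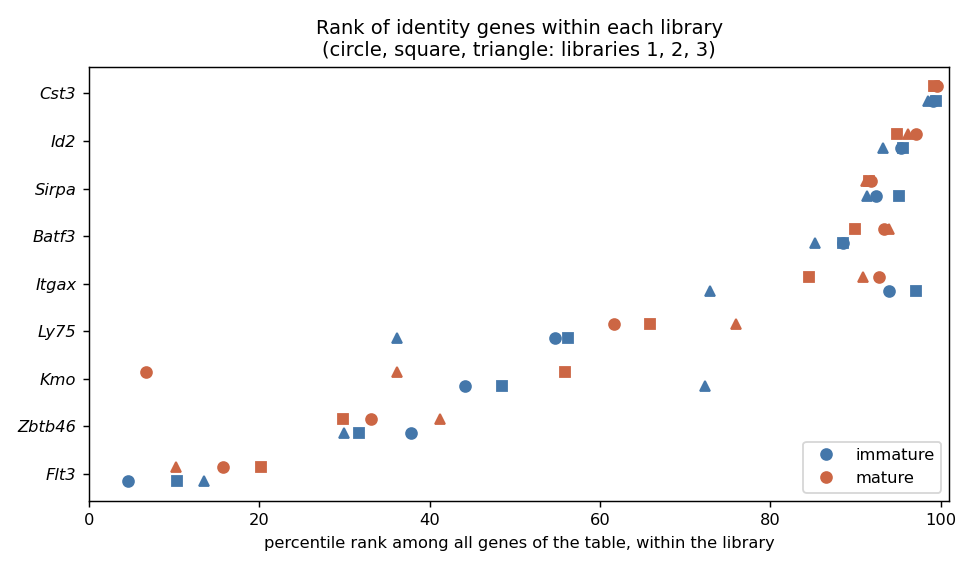
Percentile rank of each identity gene's summed FPKM among all genes of the table, within each library (blue immature, red mature, with circle, square and triangle for libraries 1, 2 and 3). Cst3, Id2 and Sirpa stay above 91 in every library, Batf3 and Ly75 rank higher in every mature library than in any immature one, and Itgax drops to 72.9 in immature library 3.

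The table gives values per transcript, and the 9 genes had 31 listed transcripts, of which 23 were tested. None passed limma (0 of 23, beside 0.0751% of all transcripts). At an unadjusted p under 0.05 there were 3 higher (Batf3-201, Id2-201 and Sirpa-214) and 0 lower, beside 7.39% of all transcripts higher. All mature values were above all immature values for 5 of them (Batf3-201, Id2-201, Ly75-202, Cst3-201 and Sirpa-214), beside 13.1% of all transcripts. They were all below for 1, Id2-203, beside 1.39% of all transcripts. Division of reads among transcripts of a gene is an estimate, so transcript values are less certain than gene sums.

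For Id2 the 2 transcripts without overlap between the groups differed in sign, and neither passed the test. The main transcript Id2-201 was at 28.9, 30.9 and 13.7 FPKM in immature and 52.2, 61.8 and 71.5 FPKM in mature libraries, a log2 difference of 1.37 (SE 0.53, limma adjusted p = 0.543). Id2-203, which is also annotated as protein coding, was at 5.13, 3.91 and 8.19 FPKM and at 1.51, 1.87 and 3.66 FPKM, a log2 difference of -1.01 (SE 0.54, limma adjusted p = 0.725). As a share of the gene's summed FPKM, Id2-203 took 15.1%, 11.2% and 26.9% in immature and 2.80%, 2.91% and 4.73% in mature libraries. The shares did not overlap between the groups, and a share does not depend on how a library is scaled. Id2-203 was named after its values were seen. How many transcripts of all genes have shares without overlap was not counted, and the shares were not tested. The third coding transcript, Id2-202, took 28.1% of the gene in immature library 3, at 8.54 FPKM, and between 0% and 2.98% in the other 5. Immature library 3 was also where Id2-201 had its lowest share, 45.0%.

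Batf3 had a single coding transcript, Batf3-201, at 6.98, 6.50 and 9.20 FPKM in immature and 16.5, 18.6 and 21.4 FPKM in mature libraries (log2 difference 1.22, SE 0.47, limma adjusted p = 0.543). The processed transcript Batf3-205 made up much of the rest, at 5.45, 6.74 and 2.59 FPKM and at 5.60, 12.5 and 17.7 FPKM, so part of the Batf3 sum is RNA annotated as not coding for protein. The annotated starts of the transcripts differ as well. Relative to the RefSeq start used for the promoter shown above, Batf3-205 starts at -567 and Batf3-201 at -89.

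For Cst3, Cst3-201 was at 150.0, 120 and 129 FPKM in immature and 202, 374 and 300 FPKM in mature libraries, with no overlap (limma adjusted p = 0.695). The second coding transcript, Cst3-202, was at 48.7, 164 and 48.0 FPKM and at 86.4, 67.6 and 100 FPKM. It took 57.7% of the gene in immature library 2 and between 15.3% and 29.9% in the other 5. Sirpa was divided among 12 transcripts, 8 of them coding, and Sirpa-214 was at 3.34, 0.0959 and 0.857 FPKM and at 3.97, 21.9 and 6.97 FPKM (log2 difference 2.23, SE 0.75, limma adjusted p = 0.469). In immature library 2 the non-coding transcript Sirpa-207 took 50.2% of the gene. A single transcript carried most of the other genes: Itgax-201 took 90.4% to 100% of Itgax, and Ly75-202 took 67.4% to 100% of Ly75. The 2 Zbtb46 transcripts, both coding, had no steady order, with Zbtb46-202 between 0% and 94.2% of the gene.

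**Figure D4:**
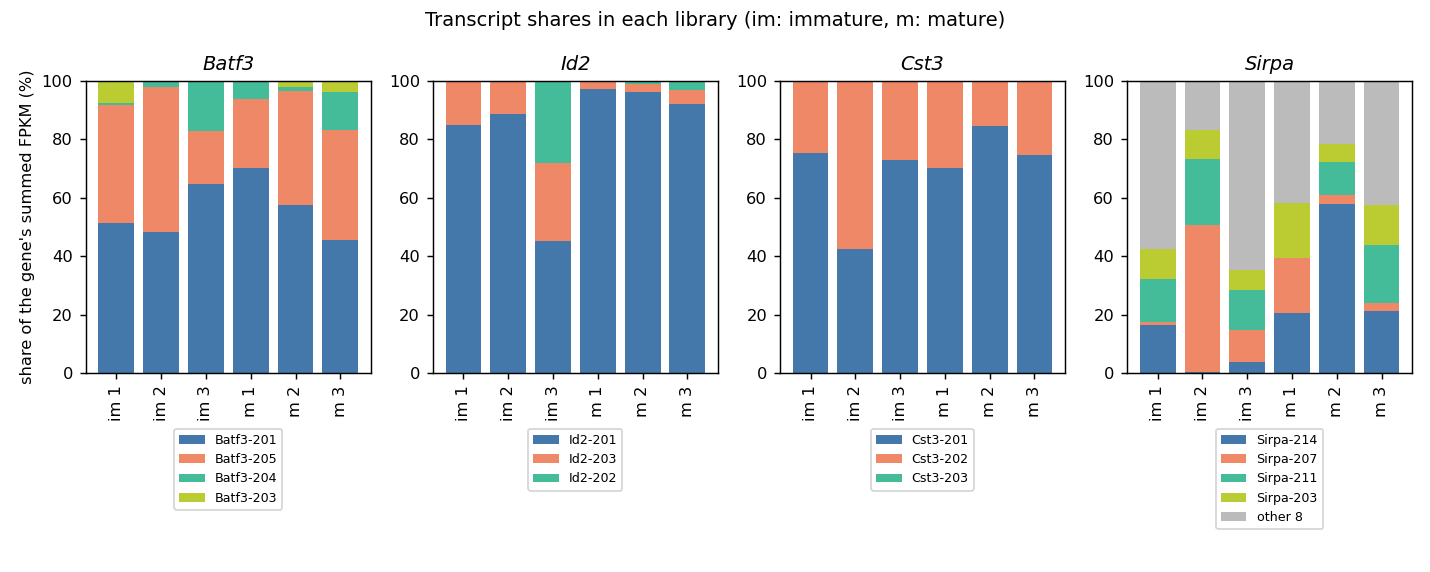
Share of each gene's summed FPKM (%) taken by its transcripts in each library for Batf3, Id2, Cst3 and Sirpa (im, immature; m, mature). Id2-203 takes 11.2% to 26.9% in immature and 2.80% to 4.73% in mature libraries, and immature library 2 stands apart through Cst3-202 and Sirpa-207.

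Ratios to a partner gene within a library remove the library's scale. They could be formed for 5 of 8 planned pairs, since the others held a value listed at 0. CD11c pairs with the beta chain encoded by Itgb2, which was at 38.3, 69.8 and 12.0 FPKM in immature and 32.9, 55.1 and 81.7 FPKM in mature libraries. The log2 ratio of Itgax to Itgb2 was -0.59, -0.34 and -0.71 in immature libraries and -0.62, -1.39 and -1.34 in mature libraries. Mature library 1 lay among the immature values. The means of -0.55 ± 0.19 and -1.12 ± 0.43 (SD, n = 3) differed by -0.57, which did not pass (2-sided exact permutation p = 0.2, adjusted p = 0.75 over 5 ratios, smallest possible p = 0.1).

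Batf3 was also compared with Batf, a related AP-1 factor gene that was at 6.90, 5.09 and 5.03 FPKM in immature and 8.71, 36.3 and 37.1 FPKM in mature libraries. Their log2 ratio was 0.97, 1.41 and 1.50 and then 1.44, -0.17 and 0.34, a difference of -0.76 (2-sided exact permutation p = 0.3, adjusted p = 0.75). Batf thus stood further above its immature level than Batf3 in mature libraries 2 and 3, but not in mature library 1. The ratios of Itgax to Itgam, Cst3 to Ctss and Sirpa to Cd47 differed by 0.31, 0.15 and -0.33 on the log2 scale (2-sided exact permutation p = 0.8, 0.9 and 0.9, each adjusted to 0.9). Each of these 3 differences changed sign when a library was left out.

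Other genes of the dendritic cell program were read from lists, each with 0 genes past limma unless stated. Genes named below beside a count alone, with no level, were chosen after their values were seen. Of 20 tested conventional dendritic cell core genes, 3 had an unadjusted p under 0.05, all higher (Ccr7, Slamf7 and Traf1), beside 9.52% of all genes. The mature values lay above the immature ones for 5, these and Gpr132 and Hmgn3, beside 16.7% of all genes. The median log2 difference was 0.64 beside 0.38 over all genes. Ccr7, the chemokine receptor that guides mature dendritic cells to lymph nodes, was at 8.69, 10.0 and 8.26 FPKM in immature and 32.2, 38.7 and 45.3 FPKM in mature libraries (log2 difference 1.98, SE 0.44, limma adjusted p = 0.151). Slamf7, a receptor of the SLAM family, was at 13.2, 14.0 and 6.80 FPKM and at 35.2, 47.6 and 53.5 FPKM (limma adjusted p = 0.197). Both were clear of overlap. Ass1, an enzyme of arginine synthesis, and Jak2, a kinase of cytokine signalling, were also abundant and overlapped between groups.

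Of 27 tested dendritic cell transcription factor genes, 10 had an unadjusted p under 0.05, all higher, beside 9.52% of all genes. In 9 all mature values were above all immature ones, beside 16.7% of all genes. The median log2 difference was 0.78, beside 0.38 over all genes. Junb, an AP-1 subunit gene, was at 27.1, 33.5 and 26.6 FPKM in immature and 74.5, 97.5 and 226 FPKM in mature libraries (log2 difference 1.99, SE 0.55, limma adjusted p = 0.261). Nfil3, a leucine zipper factor upstream of type 1 cells, was at 16.3, 20.6 and 11.4 FPKM and at 31.2, 36.0 and 63.7 FPKM (limma adjusted p = 0.406), and Jund was likewise without overlap. The third AP-1 gene named, Jun, overlapped between the groups.

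Markers of dendritic cell subsets came next. Over all genes tested, 9.52% were higher at an unadjusted p under 0.05, 16.7% were non-overlapping upward and 0.643% downward. Of 17 type 1 markers, 10 had values and 7 were tested, with 0 at an unadjusted p under 0.05, 0 non-overlapping upward and 1 downward (Rab7b), and a median log2 difference of -0.20. Xcr1, Clec9a and Cadm1 were not analysed here. Cd24a, the most abundant, was at 31.5, 27.6 and 84.1 FPKM in immature and 18.6, 79.4 and 31.9 FPKM in mature libraries, and Cd36, a scavenger receptor gene, at 30.2, 90.3 and 4.47 FPKM and at 10.3, 9.23 and 16.5 FPKM. Neither separated the groups. Of 10 tested type 2 markers, 0 had an unadjusted p under 0.05, 0 had groups without overlap, and the median was -0.02. Clec4n, the most abundant of these, was at 69.7, 210 and 42.6 FPKM and at 64.8, 125 and 195 FPKM (log2 difference 0.44). Mgl2, a galactose-type lectin gene, was at 83.3, 112 and 43.4 FPKM and at 38.6, 55.4 and 51.3 FPKM (log2 difference -0.62). Differences in the list ran from -1.22 to 0.67. Of 9 tested plasmacytoid markers, 2 were higher at an unadjusted p under 0.05 and did not overlap, Bst2 and Irf8, and the median was 0.24. Bst2, which encodes the interferon-induced protein tetherin and is not confined to plasmacytoid cells, was at 22.7, 72.1 and 19.5 FPKM and at 92.5, 162 and 261 FPKM (limma adjusted p = 0.277). The difference between these medians was not tested.

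**Figure D5:**
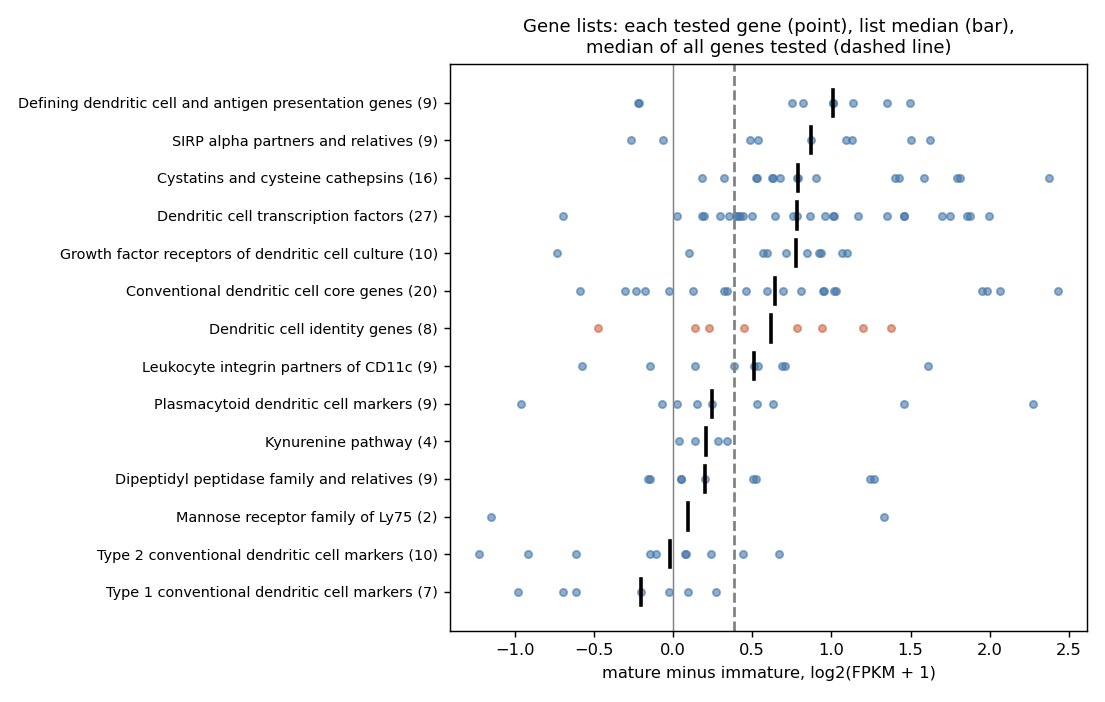
Log2 difference (mature minus immature, log2(FPKM + 1)) of every tested gene in the identity genes (red) and 13 related lists (blue), with the list median as a bar, the number tested in brackets and the median of all genes tested, 0.38, as a dashed line. List medians run from -0.20 for type 1 markers to 1.01 for antigen presentation genes, with 0.62 for the identity genes.

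Genes that act with single members gave the counts below. The shares over all genes were 9.52% higher at an unadjusted p under 0.05, 16.7% non-overlapping upward and 0.643% downward. Of 10 tested growth factor receptors, 0 had an unadjusted p under 0.05, 3 were non-overlapping upward (Csf2rb, Csf2rb2 and Il3ra) and 1 downward (Flt1), with a median log2 difference of 0.78. Of 9 tested genes of leukocyte integrins and their partners, 1 was higher at an unadjusted p under 0.05 (Icam1). In that list 2 were non-overlapping upward (Icam1 and Fermt3) and 0 downward, and the median was 0.51. Itgam, the CD11b gene, was at 34.9, 62.9 and 11.3 FPKM in immature and 10.5, 43.1 and 40.3 FPKM in mature libraries, with immature library 2 highest, as for Itgax. Of 9 SIRP alpha partners and relatives, 1 was higher at an unadjusted p under 0.05 (Pirb), with a median of 0.87. Pirb was also the only 1 of these non-overlapping upward, and 0 were downward. Cd47, the ligand gene, was at 17.4, 8.48 and 34.4 FPKM and at 10.8, 52.6 and 28.5 FPKM.

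Of 16 tested cystatins and cysteine cathepsins, Cst3 included, 1 was higher at an unadjusted p under 0.05 (Stfa3), beside 9.52% of all genes. For 3 the groups did not overlap (Cst3, Cst7 and Stfa3), beside 16.7% of all genes, and the median was 0.79. Ctss, the cathepsin that trims the invariant chain of MHC class II, was at 167, 392 and 60.4 FPKM in immature and 123, 341 and 356 FPKM in mature libraries. In the kynurenine pathway, 4 genes were tested, 0 at an unadjusted p under 0.05, with a median of 0.21. Ido1, which starts the pathway that Kmo continues, was listed at 0 in all 3 immature libraries and in mature library 1, and at 1.55 and 1.02 FPKM in mature libraries 2 and 3. Ido1 was named after its values were seen. Of 9 tested genes in a list of peptidases and other genes set beside Dpp4, 0 had an unadjusted p under 0.05 and the median was 0.20. The most abundant, the aminopeptidase gene Anpep, was at 39.6, 95.9 and 4.97 FPKM and at 88.8, 36.3 and 97.1 FPKM. Of the mannose receptor family of Ly75, 2 genes were tested and neither had an unadjusted p under 0.05. Cd302 was at 2.96, 1.04 and 1.80 FPKM and at 1.26, 14.2 and 9.47 FPKM, and Mrc1 at 2.98, 2.87 and 5.57 FPKM and at 0.0861, 3.81 and 0.777 FPKM.

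The labelled cell type was checked against its defining markers. All 9 antigen presentation and defining genes had values, and the MHC class II gene H2-Ab1 was at 266, 376 and 209 FPKM in immature and 552, 471 and 661 FPKM in mature libraries (limma adjusted p = 0.593). Its groups did not overlap. Cd74, which encodes the invariant chain, stood at 494, 615 and 265 FPKM and at 746, 601 and 1461 FPKM. Summed over the 9 genes, the level was 874 to 1820 FPKM in immature and 2035 to 3328 FPKM in mature libraries. Neither these sums nor H2-Ab1 was rescaled for summed FPKM, which was largest in mature libraries 2 and 3. Whether their separation holds after scaling was not tested. Of these 9 genes, 1 was higher at an unadjusted p under 0.05 (Cd80), beside 9.52% of all genes. The groups did not overlap for 4 (Cd80, H2-Ab1, H2-Eb1 and H2-DMb1), beside 16.7% of all genes. The median log2 difference of the 9 was 1.01, beside 0.38 over all genes.

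Markers of other cells were also present. All 14 neutrophil markers had values, and their summed level was 252, 272 and 1432 FPKM in immature and 343, 2269 and 946 FPKM in mature libraries. Of the 14, 1 was higher at an unadjusted p under 0.05 (Lcn2), beside 9.52% of all genes. In these sums Lcn2 alone was at 45.6, 35.7 and 161 FPKM and at 83.5, 898 and 485 FPKM. All 11 erythroid and platelet markers had values, with sums of 43.1, 58.2 and 488 FPKM and of 59.0, 316 and 80.1 FPKM, and Gp1bb was at 0 in immature libraries. Immature library 3, where Itgax, Itgb2, Itgam, Ctss and Cd74 were lowest in their group, thus had the highest neutrophil and erythroid sums of that group and the largest ribosomal protein share, 33.8% of summed FPKM. The part of these markers in the Itgax values was not tested. Kmo had its highest value in each group in the libraries with the highest neutrophil sums, immature library 3 and mature library 2, which likewise was not tested.

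Of 16 macrophage and monocyte markers, 14 had values, with sums of 233 to 426 FPKM in immature and 199 to 647 FPKM in mature libraries. Of the 14, 1 passed limma, beside 0.185% of all genes. It was Cd14, the lipopolysaccharide co-receptor gene, at 4.39, 5.62 and 5.05 FPKM and at 31.8, 59.7 and 84.4 FPKM (log2 difference 3.21, SE 0.50, limma adjusted p = 0.0343). Cd14 was also the only marker of the 14 without overlap, beside 16.7% of all genes. Differences in this list began at -1.20, for Ccr2, and the median was 0.50, beside 0.38 over all genes. Basophil, mast cell and eosinophil markers had sums of 16.8 to 48.1 FPKM and of 54.8 to 98.1 FPKM. In these FPKM as deposited the mature sums lay above the immature ones, as did Batf3, Id2, Ly75 and Cst3. The sums were not rescaled, and Id2 and Cst3 overlapped between the groups under each scaling to a common level. Of 8 of these markers tested, 5 were higher at an unadjusted p under 0.05 (Mcpt8, Prss34, Cpa3, Gata2 and Hdc), beside 9.52% of all genes. The groups did not overlap for 3, all upward (Mcpt8, Gata2 and Hdc), beside 16.7% of all genes. Siglecf went the other way, at 2.08, 5.64 and 0.877 FPKM and at 1.85, 0.184 and 0 FPKM (log2 difference -1.17). The median of the 8 was 1.30, beside 0.38 over all genes. Fcer1a was at 0 in immature libraries and in mature library 1, and at 0.613 and 0.367 FPKM in mature libraries 2 and 3. Mcpt8, a basophil protease gene, was at 1.81, 0 and 1.86 FPKM and at 9.38, 12.8 and 10.8 FPKM. Their part in the identity genes' values was not tested. Sums for B and plasma cell markers (7 of 9 with values) ran from 5.95 to 21.5 FPKM and from 9.60 to 33.3 FPKM. Those for T and NK cell markers (9 of 11) ran from 46.7 to 146 FPKM and from 82.4 to 169 FPKM, most of it Gzma. Stromal and endothelial markers (7 of 11) summed to 12.0 to 17.2 FPKM and to 20.8 to 39.4 FPKM. Dcn was at 0 in immature libraries and at 2.25, 0 and 0.440 FPKM in mature libraries.

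The genes most like each member in pattern were named by Pearson r of log2(FPKM + 1) over the 6 libraries, as a description. The points share group, library scale and depth, and with 10272 genes a high r is reached by many. Itgax was closest to Npc1, the lysosomal cholesterol transporter gene (r = 0.988), Myof (0.986) and Rnf128 (0.985), and Npc1 was at 9.82, 24.7 and 3.49 FPKM in immature and 9.99, 11.0 and 14.4 FPKM in mature libraries, with immature libraries 2 and 3 as its ends as for Itgax. The closest gene was Hspb1 for Batf3 (0.995), Actn1 for Id2 (0.997), Arf4 for Ly75 (0.997), Chmp5 for Cst3 (0.997), Psmd14 for Sirpa (0.996), Samd14 for Zbtb46 (0.995) and Hmbox1 for Kmo (0.999). Hspb1, a small heat shock protein gene, was listed at 0 in all immature libraries and at 1.44, 2.18 and 4.45 FPKM in mature libraries. Among the identity genes themselves, r exceeded 0.9 in 3 of 28 pairs, all among Batf3, Id2 and Ly75 (0.98 for Batf3 with Id2, 0.96 for Batf3 with Ly75 and 0.95 for Id2 with Ly75). Itgax followed none of them, with r of 0.13 against Batf3.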

How the data were processed

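RNA of 6 exosome libraries was measured by RNA-seq, and groups came from the sample titles. The authors deposited 1 FPKM value per transcript and library, 27544 rows, per the file headers. Tools in the submitters' processing notes are STAR 2.5.2b, StringTie, HISAT2 2.0.5 and cutadapt, in no stated role, and the build named there is human (hg19). Row identifiers are those of mouse Ensembl genes, and 11303 of 11321 genes with a RefSeq position overlapped it on GRCm38 (99.84%), so positions were read on that build. One line of the table was emptied for this work. Every listed transcript reached 0.5 FPKM somewhere among the libraries (lowest maximum 0.500024).

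Gene values were sums of FPKM over transcripts by gene name. Genes and transcripts at 0.5 FPKM or more in at least 3 of 6 libraries (10272 and 15972) entered limma 3.58.1 under R 4.3.3 (trend and robust options) on log2(FPKM + 1), a scale that understates changes of low genes, without further scaling or a replicate block, at a Benjamini-Hochberg adjusted p under 0.05. The filter was kept for scalings and left-out libraries. FPKM values are not counts, so no count model was used. Whole reads were not recovered, and relative depth came from genes with 1 transcript at values below 1 FPKM. Ratios were compared with 2-sided exact permutation tests over libraries. The limma procedure was tested on simulated data. Promoters came from RefSeq tables and matched 9 of the 10 genes, Sirpa not among them.

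The identity genes and the lists were chosen with earlier results of these data known. Named genes were the members, transcripts at 20% or more of a gene's summed FPKM or past the test, up to 4 genes per list (past the test, then most abundant) and the genes nearest in pattern. Alternatives were other pseudocounts, filters, scalings, coding transcripts only, a replicate block, limma without its trend and robust options, and left-out libraries.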

Additional observations from a re-analysis of the deposited data

How the results depend on the processing

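Under each alternative run, 0 identity genes and 0 of their transcripts passed limma. The smallest adjusted p of a member was 0.114, for Ly75 without immature library 2 and mature library 1, those with the fewest detected transcripts. Batf3, Id2, Ly75, Cst3 and Zbtb46 kept a positive difference in all 18 alternatives each. Their ranges were 0.69 to 1.43, 0.41 to 1.11, 0.92 to 1.82, 0.24 to 1.16 and 0.07 to 0.81, in that order. Of 144 member values 12 changed sign, and for these changes and the values that follow the cause was not tested. Itgax was -0.22, -0.36, -0.39 and -0.35 with scaling to the same sum, median-of-ratios, upper-quartile and quantile normalization, and -0.60 to 0.77 with 1 library left out, including -0.06 without mature library 3. Sirpa was -0.13, -0.27, -0.30 and -0.29 under the same 4 scalings. Kmo ran from -1.11 to 0.24 with 1 library left out, including 0.10 without immature library 3, and was -1.34 with a pseudocount of 0.1 and -0.83, -0.92, -0.93 and -0.99 under the 4 scalings. The identity genes' median of 0.62 became 0.20 with upper-quartile scaling, where the median of all genes was 0.0029, and ran from 0.47 to 0.88 with 1 library left out. The number of identity genes without overlap, 4, became 2, 1, 2, 2 and 2 with scaling to the same sum, median-of-ratios, upper-quartile, quantile normalization and percentile ranks, beside 10.1%, 7.6%, 7.38%, 7.15% and 7.15% of all genes, alternatives chosen after seeing the data. It was 6 without both immature library 2 and mature library 1, beside 48.2% of all genes, where 2 libraries a group remain. The number of genes called, 19, was 9 with a pseudocount of 0.1, 12 with median-of-ratios scaling and 77 (76 higher) without both immature library 2 and mature library 1. With 1 library left out it ran from 1 without mature library 3 to 27 without immature library 2, and it was 7 without immature library 1.

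With the replicate number as a block (replicate block), 5 genes and 0 members were called, the smallest adjusted p of a member being 0.807. Deviations of same-numbered libraries correlated at -0.03, -0.45 and -0.13, so the numbers were not taken to pair libraries, and no library correlated best with its own number. With 1 library left out, chosen after seeing the data, the log2 ratio difference ran from -0.25 to 0.77 for Itgax to Itgam, from -0.31 to 0.70 for Cst3 to Ctss (-0.17 without mature library 1) and from -0.86 to 0.36 for Sirpa to Cd47 (0.0058 without mature library 2). It kept its sign for Itgax to Itgb2 (-0.82 to -0.43) and Batf3 to Batf (-1.21 to -0.41). Read totals are unknown, so low values such as those of Flt3, Kmo and Zbtb46 have no counting error attached.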
